A study of Mus musculus x Rattus norvegicus with 2 samples.

Results

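The genes described here are the platelet-derived growth factor (PDGF) ligands Pdgfa, Pdgfb, Pdgfc and Pdgfd and the PDGF receptors Pdgfra and Pdgfrb. They were chosen by symbol among the mouse (mm10) and rat (rn6) features of both libraries, and all 6 symbols were found once in each species, 12 of 80802 features. PDGFs are secreted dimers that bind receptor tyrosine kinases on neighbouring mesenchymal cells. In the developing mouse lung, PDGF-A from the epithelium acts through PDGF receptor alpha on the fibroblasts that become alveolar myofibroblasts, and PDGF-B from the endothelium acts through PDGF receptor beta on the pericytes of small vessels. PDGF-C and PDGF-D are made in a latent form that is opened by proteases outside the cell, and PDGF-C acts mainly through the alpha receptor and PDGF-D mainly through the beta receptor.

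Lung cells came from E20.5 chimeras of mouse and rat, made with the mouse strain C57BL/6 and the rat strain SD, and read as droplet single-cell libraries with the 10x 3' v3 chemistry. The mutant library was mouse lung grown in an Nkx2-1-/- rat, a host without the transcription factor that its own lung epithelium needs. The control library was chimeric lung from a wt rat, whose own lung epithelium can form. Each group was 1 library, and the number of embryos behind it is not given in the sources used here, so no difference between the libraries has a replicate check and no p-value is given.

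Levels are unique molecular identifiers (UMIs, one per captured RNA molecule) of a gene per 1000000 UMIs of the cell's own species (CPM), summed over the cells of a type. Their 95% intervals are exact Poisson intervals and cover counting error only. The mutant library had 103627303 UMIs over 10918 barcodes and the control library 123047433 UMIs over 11129 barcodes. After filters on genes, mitochondrial share, species and doublets, 8497 mouse and 79 rat cells of the mutant library and 7260 mouse and 725 rat cells of the control library were used. Barcodes with RNA of both species were left out, 57 of the mutant and 882 of the control library, and 27 barcode sequences occurred among the used cells of both libraries. Cell types were named from marker RNA and are written with the ending "-like"; none of the 6 genes was used for clustering or naming. The control matrix was made with Cell Ranger 6.0.1 and the mutant matrix with Cell Ranger 7.0.1, which counts intronic reads by default. In all 4 mouse cell groups compared, genes with long introns had higher mutant CPM, so differences between mouse cells of the libraries are also set against the 200 measured genes nearest in intron length. Rat differences between the libraries have no such value here. Cell types within a library were counted with the same version, but whether their order would hold under the other version was not tested.

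In both libraries Pdgfa and Pdgfc lay mainly in the epithelium, Pdgfb and Pdgfd mainly in the endothelium, and both receptors in the mesenchyme. Of the Pdgfa UMIs in mouse cells, 73.5% in the mutant and 68.8% in the control library lay in epithelial cells. For Pdgfc the epithelial share was 58.0% in the mutant and 62.3% in the control library. Endothelial cells held 89.5% of the Pdgfb UMIs in the mutant and 72.0% in the control library, and 88.1% of the Pdgfd UMIs in the mutant and 75.9% in the control library. Mesenchymal cells held 98.0% of the Pdgfra UMIs in the mutant and 95.5% in the control library, and 97.3% of the Pdgfrb UMIs in the mutant and 93.4% in the control library. The shares reflect how many cells of a class were captured as well as their RNA, and these cannot be told apart in a total. They also depend on which cells were set aside for low depth or markers of a further class. Cells outside these classes held 5.66% of mutant and 21.8% of control Pdgfb UMIs, and 2.76% of mutant and 14.1% of control Pdgfd UMIs. Endothelial sub-clusters set aside for such markers had 22 and 14 cells in the mutant and 150 and 73 in the control library. A control cluster of 738 cells with endothelial markers was set aside for low depth.

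**Figure D1:**
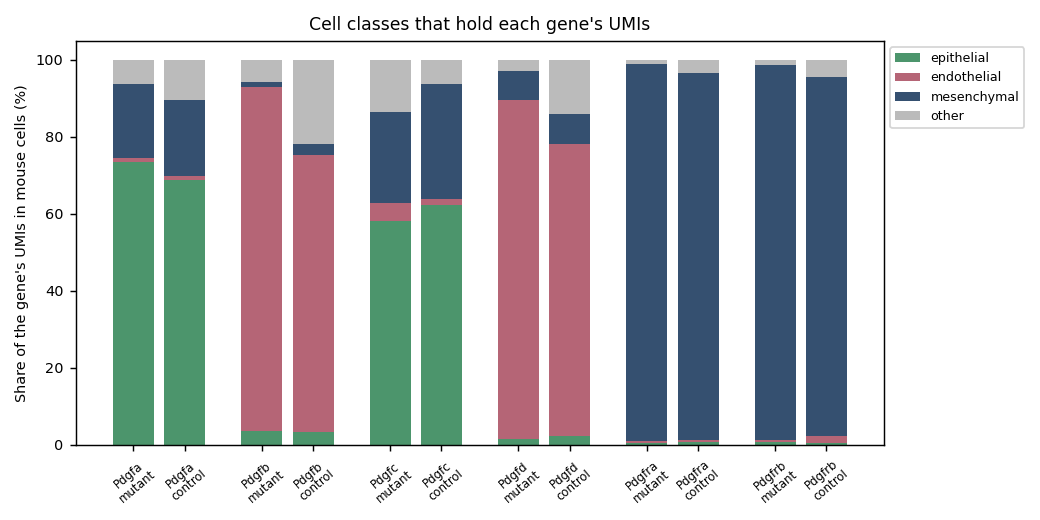
Share of each gene's UMIs in mouse cells (vertical axis, percent) held by epithelial, endothelial, mesenchymal and other cells, with the mutant library left of the control library for each gene. Pdgfa and Pdgfc UMIs lay mostly in epithelial cells, Pdgfb and Pdgfd UMIs in endothelial cells, and the receptor UMIs in mesenchymal cells, the lowest share being 93.4%. Other cells are immune and erythroid cells, clusters of low depth and sub-clusters with markers of a further class.

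Pdgfa (mm10 chr5:138976014-138997370, minus strand, with 18.238 kb of intron) was highest in alveolar type 1-like (AT1-like) cells, the flat gas-exchange cells, in the mutant library. In the control library AT1-like, alveolar type 2-like (AT2-like) and mesothelial-like cells were level within their intervals. In AT1-like cells it was 292 CPM (95% interval 280.5 to 303) in the mutant library, from 2626 UMIs in 912 cells, and 175 CPM (95% interval 167 to 183) in the control library, from 1716 UMIs in 344 cells. In AT2-like cells, the surfactant producers, it was 74.6 CPM (95% interval 69.8 to 79.7) in the mutant library and 173 CPM (95% interval 166 to 180.2) in the control library. The epithelial total hid this opposite movement: it was 167 CPM in the mutant and 165 CPM in the control library. On the log2(CPM + 10) scale, mutant over control was 0.71 in AT1-like and -1.11 in AT2-like cells, or 1.11 and -0.64 against the 200 genes nearest in intron length. Of all measured genes, those with at least 10 CPM in either library, 24.1% in AT1-like and 30.9% in AT2-like cells differed by at least 2-fold, and 16.4% and 21.1% did so against genes of like intron length, so a difference of this size was not rare.

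Within the mutant library, Pdgfa was 3.91 times as high in AT1-like as in AT2-like cells (95% counting interval 3.62 to 4.22), whereas within the control library the ratio was 1.01 (0.948 to 1.07). The 4 AT1-like sub-clusters of the mutant library ranged from 229.8 to 342 CPM and its 3 AT2-like ones from 58.5 to 101 CPM, with no overlap. In the control library the 4 AT1-like sub-clusters ranged from 155 to 184 CPM and the 3 AT2-like ones from 156 to 181 CPM, and they overlapped. The alveolar types themselves lay further apart in the mutant library. The 10 AT1 markers summed to 19718 CPM in mutant and 3102 CPM in control AT1-like cells, and the 10 AT2 markers to 165969 CPM in mutant and 57327 CPM in control AT2-like cells. Between AT1-like and AT2-like cells, 16.5% of measured genes differed by at least 2-fold in the mutant and 3.19% in the control library. The surfactant gene Sftpc, an AT2 marker, was at 1883 CPM in mutant and 12965 CPM in control AT1-like cells. The part of these marker levels in the Pdgfa result was not tested.

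After thinning every cell to 3000 UMIs, 57.8% of mutant and 36.5% of control AT1-like cells had a Pdgfa UMI, against 88.5% and 82.3% at full depth. In endothelial cells, where the gene was near background, the thinned share was 1.31% in the mutant and 2.84% in the control library. Median depths were 9829 UMIs for mutant and 13848 UMIs for control AT1-like cells, and 7886 UMIs for mutant and 7488 UMIs for control endothelial cells. In airway cells Pdgfa was 199 CPM (95% interval 178 to 221) in the mutant and 134 CPM (95% interval 119 to 151) in the control library in ciliated-like cells, and 51.8 CPM in the mutant and 102 CPM in the control library in secretory-like cells. Outside the epithelium it was also found in mesothelial-like cells, the lining of the lung surface, at 131 CPM in the mutant (26 cells) and 174 CPM in the control library (37 cells). Vessel and airway wall cells carried it as well: pericyte-like cells had 108 CPM (95% interval 94.4 to 124) in the mutant and 97.5 CPM (95% interval 88.6 to 107) in the control library, and control smooth muscle-like cells 88.8 CPM. The control pericyte value rested partly on 1 sub-cluster of 89 cells led by Fabp4, Map3k7cl and Parm1, in which Pdgfa was 203 CPM. Without it the control pericyte-like cells were at 60.9 CPM and mutant over control was 0.74 in place of 0.14, or 0.88 in place of 0.33 against genes of like intron length. A mutant sub-cluster of 156 cells led by Ctnna3, Ptn and Ntrk3 was left untyped and had 84.9 CPM. Fabp4, Map3k7cl and Heyl were among the leading genes of both sub-clusters. The best-scoring type list of the mutant one was that of smooth muscle, at a mean log2 fold of 0.98, and whether the 2 are the same kind of cell was not tested.

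**Figure D2:**
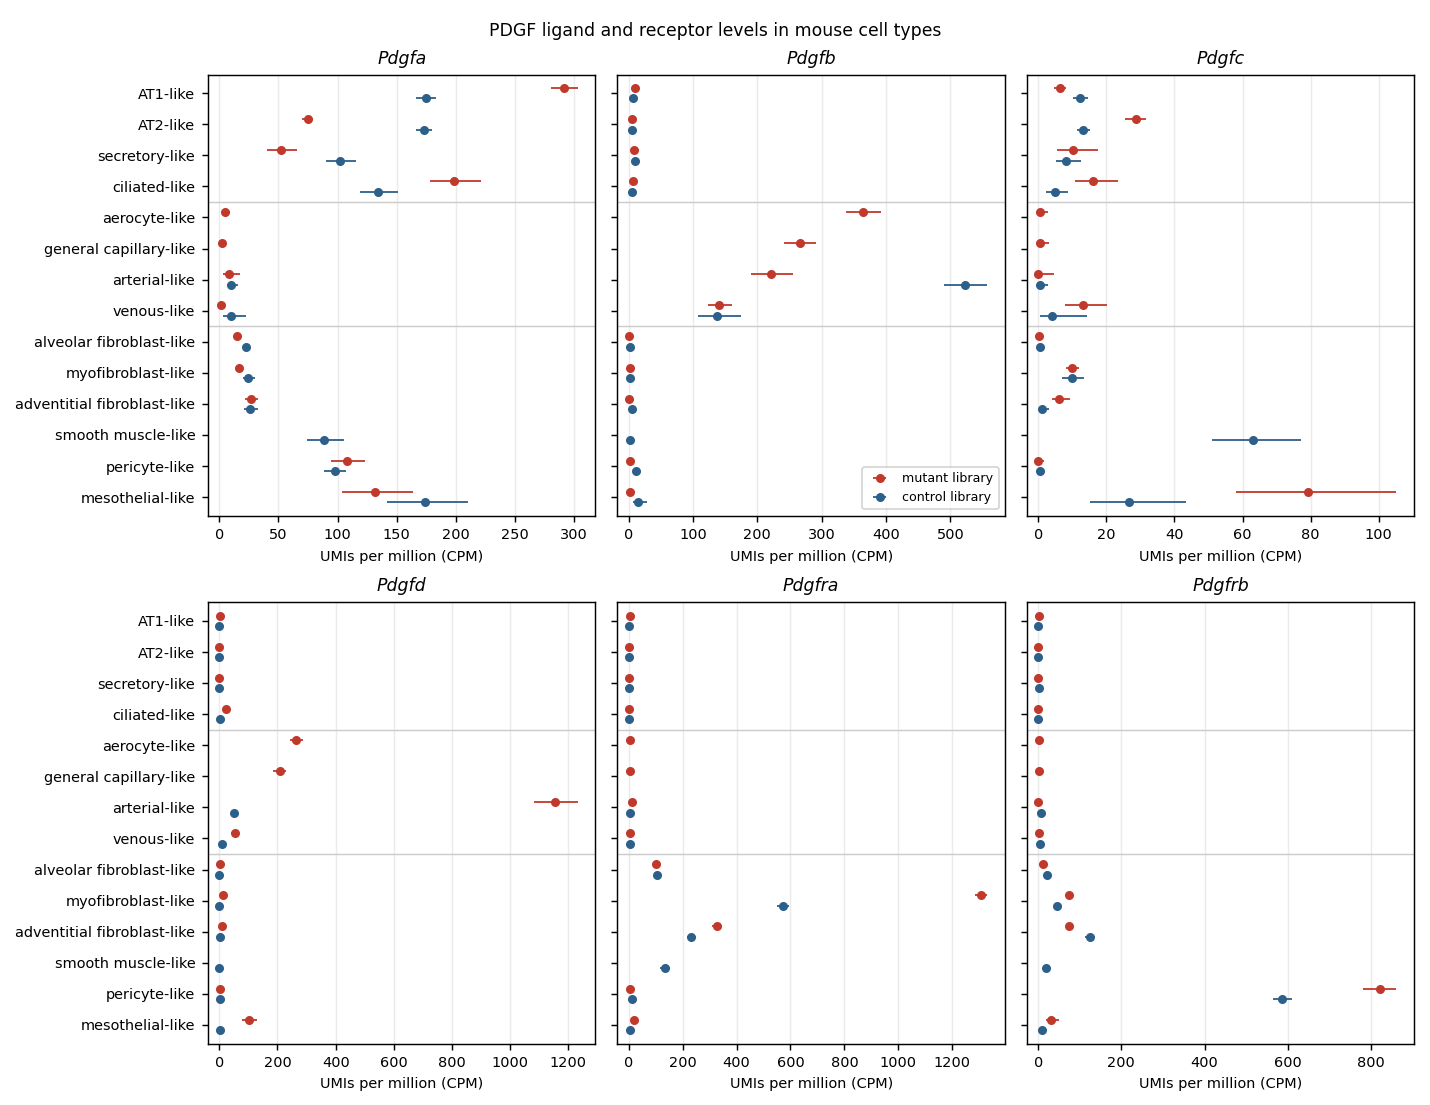
UMIs of a gene per 1000000 (horizontal axis, CPM, linear, a scale of its own for each gene) in mouse cell types, with the mutant library above the control library; bars are 95% Poisson intervals and types with fewer than 25 cells in a library are not drawn. Pdgfa separates AT1-like from AT2-like cells in the mutant library alone, at 292 and 74.6 CPM, Pdgfb and Pdgfd lie in endothelial types, Pdgfra is highest in myofibroblast-like and Pdgfrb in pericyte-like cells.

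Pdgfc (chr3:81036416-81214040, plus strand, 172.536 kb of intron) was the ligand with the fewest UMIs in the mutant library, 847 over all barcodes, and had 601 in the control library. In the control library it was highest in smooth muscle-like cells, at 63.1 CPM (95% interval 51.1 to 77.1). The mutant library had no sub-cluster named smooth muscle-like. Its 77 cells led by Calca, followed by Actc1, Ttn, Myl7 and Myh6, genes of heart muscle and smooth muscle, were left untyped as mixed and had 99.5 CPM. In AT2-like cells Pdgfc was 28.6 CPM (95% interval 25.6 to 31.8) in the mutant and 13.2 CPM (95% interval 11.4 to 15.2) in the control library, and in AT1-like cells 6.33 CPM (95% interval 4.79 to 8.20) in the mutant and 12.2 CPM (95% interval 10.1 to 14.6) in the control library. The mutant over control log2 difference of 0.74 in AT2-like cells turned to -0.25 relative to genes of like intron length, and that of -0.44 in AT1-like cells became -1.23. Mesothelial-like cells had 79.1 CPM in the mutant and 26.7 CPM in the control library. Pericyte-like cells had 0 UMIs in 169 mutant cells and 2 UMIs in 488 control cells. Taking 3 counts as the limit that a count of 0 allows, the mutant cells could hold up to 1.48 CPM.

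Pdgfb (chr15:79995874-80014977, minus strand, 14.943 kb of intron) was endothelial in both libraries, at 288 CPM (95% interval 280.0 to 297) over all mutant and 388 CPM (95% interval 376 to 399.7) over all control endothelial cells. No named epithelial or mesenchymal type with at least 50 cells passed 9.55 CPM in the mutant or 11.4 CPM in the control library. In the mutant library aerocyte-like cells, the capillary cells of the gas-exchange surface, were highest at 365 CPM (95% interval 338 to 393). General capillary-like cells followed at 266 CPM (95% interval 242 to 291), arterial-like cells at 221 CPM (95% interval 189.5 to 255) and venous-like cells at 141 CPM (95% interval 123 to 161). The intervals of the general capillary-like and arterial-like cells overlapped. This order covers the named types, and 1051 further endothelial cells of the mutant library were untyped. In the control library arterial-like cells were highest at 523 CPM (95% interval 490.3 to 557), venous-like cells had 138 CPM (95% interval 108 to 174), and 541 untyped endothelial cells, in which no capillary type was named, had 373 CPM.

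Arterial-like cells thus stood below the other endothelial cells in the mutant library, at a ratio of 0.755 (95% counting interval 0.646 to 0.877), and above them in the control library, at 1.45 (95% counting interval 1.35 to 1.56). Those other endothelial cells were mostly untyped in both libraries, and whether their make-up was alike was not tested. Mutant over control was -1.21 on the log2 scale in arterial-like cells or -0.83 against genes of like intron length, which is under 2-fold; 23.5% of measured genes differed by at least 2-fold there, and the groups held 93 mutant and 87 control cells. After thinning, 54.1% of mutant and 62.4% of control endothelial cells had a Pdgfb UMI, against 80.0% of mutant and 83.8% of control ones at full depth. In mesenchymal cells, where its level was near background, the thinned share was 0.436% in the mutant and 1.18% in the control library, at median depths of 11367 UMIs in the mutant and 9283 UMIs in the control library.

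Pdgfd (chr9:6168584-6378850, plus strand) has 207.113 kb of intron, the most of the 6 genes. In the mutant library it was highest in arterial-like cells at 1155 CPM (95% interval 1082 to 1231), followed by aerocyte-like cells at 265 CPM, general capillary-like cells at 207 CPM and venous-like cells at 52.9 CPM. In the control library it was also highest in arterial-like cells, at 49.0 CPM (95% interval 39.4 to 60.2), and 9.86 CPM in venous-like cells. The arterial excess was present in both libraries. Arterial-like over other endothelial cells was 6.98 (95% counting interval 6.47 to 7.53) in the mutant and 5.68 (95% counting interval 4.14 to 7.80) in the control library, and the intervals overlapped. The arterial-like cells held 937 mutant and 90 control UMIs.

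Between libraries, Pdgfd was 218 CPM in mutant and 15.5 CPM in control endothelial cells, a log2 difference of 3.16. Genes of like intron length had a median difference of 1.02, which leaves 2.14, and 0 of the 200 measured genes nearest in intron length had a difference as large. In arterial-like cells the difference was 4.30, or 3.13 against genes of like intron length, and again 0 of 200 reached it. How many intronic reads each matrix counts for this gene is not given in the sources used here, so a difference in RNA and one in counting cannot be told apart. Epithelial cells had 2.25 CPM in the mutant and 0.171 CPM in the control library. In the mutant library Pdgfd was also found in mesothelial-like cells, at 101 CPM, against 3.34 CPM in the control library.

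**Figure D3:**
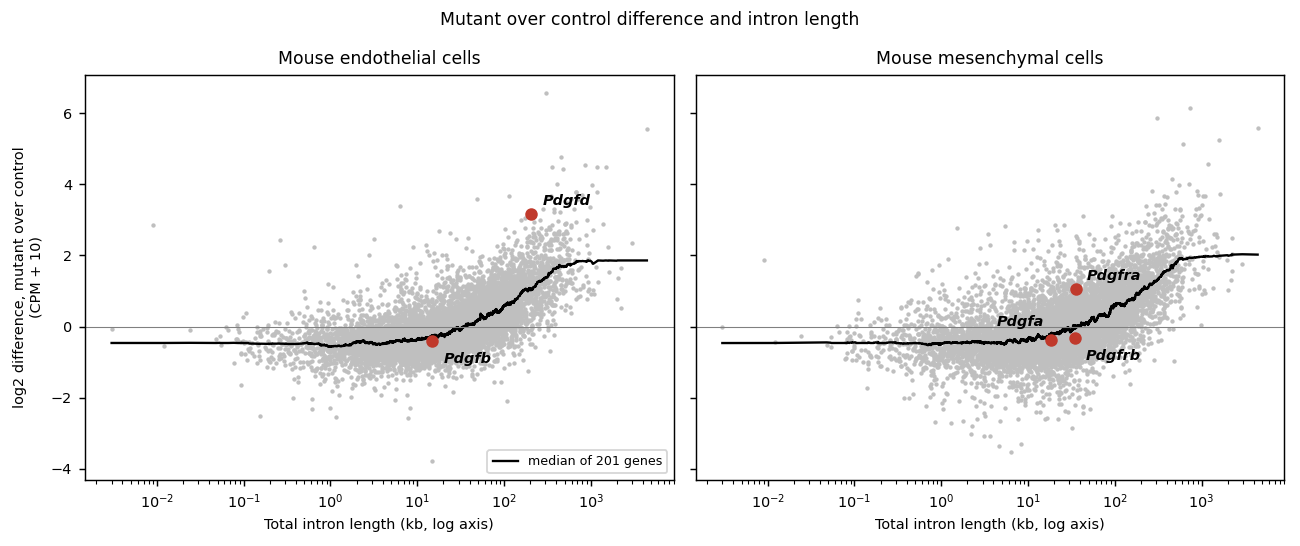
log2 difference of mutant over control (vertical axis, log2(CPM + 10)) against total intron length of the mouse gene (horizontal axis, kb, log scale) in endothelial and mesenchymal mouse cells; each grey point is a measured gene, red points are the measured PDGF genes and the line is a running median of 201 genes. The line climbs with intron length, Pdgfb, Pdgfa and Pdgfrb lie near or a little below it, and Pdgfd (3.16) and Pdgfra (1.06) lie above it.

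Pdgfra (chr5:75152292-75198215, plus strand, 35.9 kb of intron), the receptor of fibroblasts, was highest in myofibroblast-like cells, the contractile fibroblasts of the alveolar entrance. It was 1307 CPM (95% interval 1284 to 1329) in the mutant library, from 13348 UMIs in 1025 cells, and 572 CPM (95% interval 549 to 595) in the control library, from 2320 UMIs in 399 cells. Adventitial fibroblast-like cells, which surround large vessels and airways, came next with 326 CPM (95% interval 308 to 345) in the mutant and 233 CPM (95% interval 216 to 250.2) in the control library. Alveolar fibroblast-like cells had 103 CPM (95% interval 99.2 to 107) in the mutant and 104 CPM (95% interval 99.0 to 109) in the control library, and these intervals overlapped. Pericyte-like cells had 3.95 CPM in the mutant and 10.9 CPM in the control library, and control smooth muscle-like cells 135 CPM. Erythroid cells had 48.5 CPM in 33 mutant cells and 82.9 CPM in 54 control cells, and epithelial cells had 2.98 CPM in the mutant and 1.81 CPM in the control library.

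In myofibroblast-like cells mutant over control was 1.18 on the log2 scale, a ratio of 2.29 (95% counting interval 2.19 to 2.39), or 1.12 against genes of like intron length; 10.8% of measured genes were at least 2-fold higher in the mutant library. All 3 myofibroblast-like sub-clusters of the mutant library, at 911, 1292 and 1454 CPM, were above the 1 of the control library. The 10 myofibroblast markers, none at 0, summed to 6277 CPM in mutant and 3574 CPM in control myofibroblast-like cells, but they did not all move alike. Hhip was 2103 CPM in mutant and 818 CPM in control cells, and Tgfbi 1890 and 1553 CPM. Fgf18 was lower, at 195 CPM in mutant and 416 CPM in control cells, as was Aspn, at 17.8 and 31.3 CPM. The 10 smooth muscle markers summed to 3374 CPM in mutant and 10048 CPM in control myofibroblast-like cells. The part of these marker levels in the Pdgfra result was not tested. Over all mesenchymal cells Pdgfra was 394 CPM in the mutant and 185 CPM in the control library, a log2 difference of 1.06. Myofibroblast-like cells made up 27.4% of mutant and 10.7% of control mesenchymal cells and held 76.5% of the mutant and 33.3% of the control Pdgfra UMIs. Without them the class was at 120.4 CPM in the mutant and 138 CPM in the control library, a log2 difference of -0.18, or -0.13 against genes of like intron length. A further control sub-cluster of 307 cells, led by Meox1, Fndc1 and Smpx and left untyped, had 371 CPM. Its best-scoring type list was that of myofibroblasts, at a mean log2 fold of -0.82 against the other mesenchymal cells. These 307 cells are not in the 10.7% and stayed in the control value of 138 CPM. The values without myofibroblast-like cells may thus compare different mixtures, and the part of these cells in the difference was not tested.

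Pdgfrb (on mouse chromosome 18, 34.434 kb of intron), the receptor of mural cells, was highest in pericyte-like cells, at 821 CPM (95% interval 782 to 861) in the mutant and 587 CPM (95% interval 565 to 609.6) in the control library. Without the Fabp4-led sub-cluster the control value was 659 CPM. After thinning, 87.6% of mutant and 79.5% of control pericyte-like cells had a UMI of it, against 0.518% of mutant and 0.131% of control epithelial cells. At full depth all 169 mutant and 85.5% of control pericyte-like cells had one, and their median depths were 11535 UMIs in the mutant and 9099.5 UMIs in the control library, beside 13170.0 UMIs in mutant and 16230.0 UMIs in control epithelial cells. Of the 488 control pericyte-like cells, 119 formed a sub-cluster with a median of only 2028 UMIs, so the full-depth shares also differ in depth. Pericyte-like over alveolar fibroblast-like cells was a ratio of 65.7 (95% counting interval 58.2 to 74.2) in the mutant and 26.4 (95% counting interval 23.5 to 29.7) in the control library. Adventitial fibroblast-like cells had 75.0 CPM (95% interval 66.5 to 84.4) in the mutant and 125 CPM (95% interval 113 to 138) in the control library. The control value was higher in 1 sub-cluster of 105 cells led by Ptn, Mfap5 and Cxcl13, with 253 CPM, than in the other, with 56.9 CPM. Myofibroblast-like cells had 75.3 CPM (95% interval 70.0 to 80.8) in the mutant and 44.6 CPM (95% interval 38.3 to 51.6) in the control library, and alveolar fibroblast-like cells 12.5 CPM in the mutant and 22.3 CPM in the control library. Mutant over control was thus 0.48 in pericyte-like, 0.64 in myofibroblast-like, -0.66 in adventitial fibroblast-like and -0.52 in alveolar fibroblast-like cells, all under 2-fold. Against genes of like intron length these were 0.46, 0.66, -0.57 and -0.45. The 10 pericyte markers, none at 0, summed to 12183 CPM in mutant and 5747 CPM in control pericyte-like cells, and their part in the Pdgfrb value was not tested.

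Each receptor was highest in a type of its own. In the mutant library the pericyte-like sub-cluster had 821 CPM of Pdgfrb and 3.95 CPM of Pdgfra, and the myofibroblast-like sub-clusters had 65.3 to 84.3 CPM of Pdgfrb. In the control library the 3 pericyte-like sub-clusters had 283 to 714 CPM of Pdgfrb and 8.44 to 25.1 CPM of Pdgfra. Intermediate were the 156 untyped Ctnna3-led cells of the mutant library, with 258 CPM of Pdgfrb and 104 CPM of Pdgfra, and the Ptn-led adventitial fibroblast-like cells of the control library, with 115 CPM of Pdgfra. Of mesenchymal cells thinned to 3000 UMIs, 201 of 3668 mutant and 133 of 3482 control cells showed both receptors. Among mutant cells with a Pdgfra UMI 12.6% had a Pdgfrb UMI, close to the 13.6% among all of them, and in the control library it was 11.5% beside 18.0%. Among mutant myofibroblast-like cells 167 of 1018 had both, and 17.8% of those with a Pdgfra UMI had a Pdgfrb UMI, which is close to the 17.4% among all of them. Among control myofibroblast-like cells 30 of 367 had both.

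**Figure D4:**
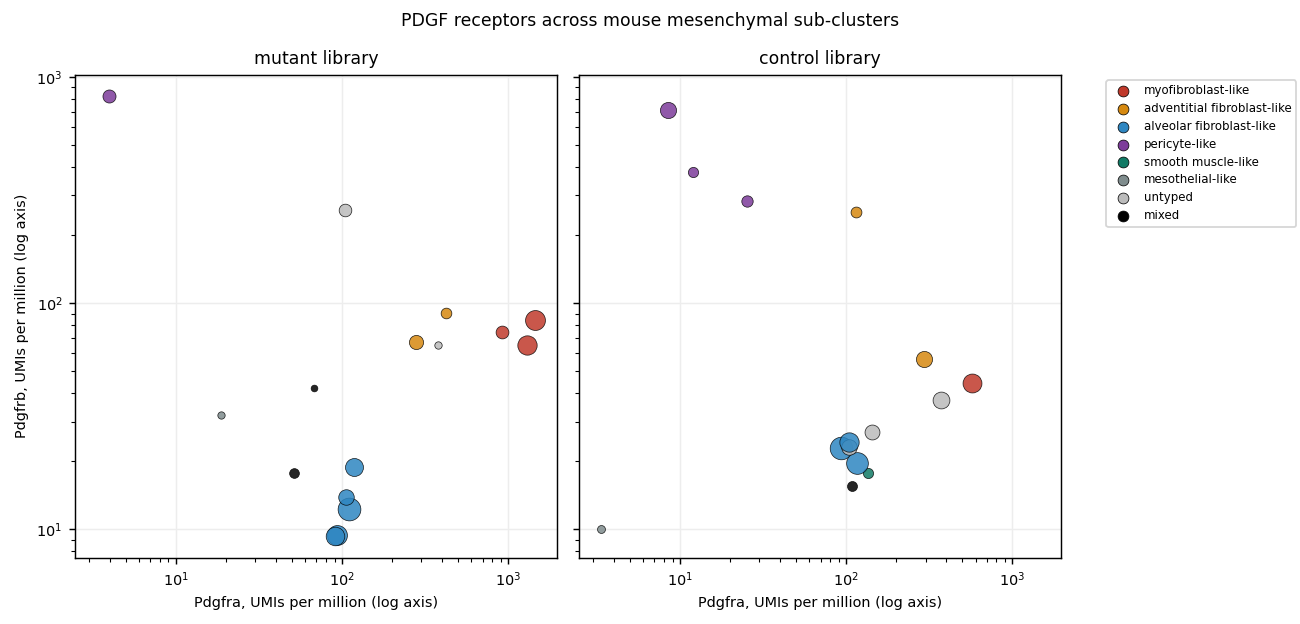
Pdgfra (horizontal axis, CPM, log scale) against Pdgfrb (vertical axis, CPM, log scale) in each mouse mesenchymal sub-cluster of the mutant (left) and control (right) library; colours give the type and the area of a point grows with its number of cells. Pericyte-like sub-clusters lie at the top left in both libraries, myofibroblast-like ones at the right, at 911 to 1454 CPM of Pdgfra in the mutant and 572 CPM in the control library, and alveolar fibroblast-like ones at 90.3 to 118 CPM of Pdgfra in the mutant and 92.8 to 116 CPM in the control library.

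UMIs of different PDGF genes also occurred in the same cells. Of pericyte-like cells thinned to 3000 UMIs, 41 of 169 mutant and 70 of 400 control cells had a UMI of Pdgfa and of Pdgfrb, the receptor that PDGF-A homodimers do not bind. Most pericyte-like cells had a Pdgfrb UMI, so these counts mainly follow the share with a Pdgfa UMI. Pdgfb and Pdgfd UMIs occurred in the same endothelial cells about as often as the share of cells with Pdgfd allows: 32.8% of mutant Pdgfb-bearing cells had a Pdgfd UMI, against 32.3% of all mutant endothelial cells, and in the control library it was 5.88% against 5.34%. In mutant arterial-like cells 31 of 84 had both.

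Measured genes were counted once in each of the 4 cell groups, and the pericyte-like cells are also part of the mesenchymal cells. Of the 11 pairs of gene and cell group, 2 differed by at least 2-fold between mutant and control mouse cells, both higher: Pdgfd in endothelial and Pdgfra in mesenchymal cells. Over all measured genes, 24.5% in epithelial, 13.6% in endothelial, 16.7% in mesenchymal and 16.6% in pericyte-like cells did so, a share in the same range. Relative to genes of like intron length the same 2 passed, against 6.52% of measured genes in endothelial, 10.2% in mesenchymal, 15.9% in epithelial and 11.3% in pericyte-like cells. The other 9 had log2 differences between -0.90, for Pdgfb in pericyte-like cells with 3 mutant and 52 control UMIs and endothelial markers summing to 239 CPM in mutant and 188 CPM in control cells, and 0.48, for Pdgfrb in pericyte-like cells.

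Rat and mouse cells of the control library grew side by side and were counted in the same way, each as CPM of its own species. The 6 rat genes had between 22 and 966 UMIs in 725 rat cells, so that levels by cell type are given only for Pdgfa, Pdgfc, Pdgfra and Pdgfrb. Rat epithelial cells had Pdgfa at 120.1 CPM (95% interval 112 to 128) and mouse epithelial cells at 165 CPM (95% interval 161 to 169.9). By type, Pdgfa was 136 CPM in rat and 175 CPM in mouse AT1-like cells, and 97.8 CPM in rat and 173 CPM in mouse AT2-like cells. In neither species did the AT1 markers of AT1-like cells sum higher than their AT2 markers. The sums were 990 CPM of AT1 and 1061 CPM of AT2 markers in rat cells, and 3102 and 14301 CPM in mouse cells. The rat AT1-like cluster was led by Scgb3a2, a secretory marker. The part of this in the values by type was not tested. Among named mesenchymal types with at least 50 cells, Pdgfc was again highest in smooth muscle-like cells, at 40.8 CPM (95% interval 30.2 to 53.9) in rat and 63.1 CPM (95% interval 51.1 to 77.1) in mouse cells. Rat endothelial cells numbered 12 and had 13 of the 22 rat Pdgfb UMIs, 107 CPM (95% interval 56.8 to 182); the rat cells held 36 mouse Pdgfb UMIs besides.

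Pdgfrb in pericyte-like cells was 592 CPM (95% interval 542 to 647) in rat and 587 CPM (95% interval 565 to 609.6) in mouse cells, a ratio of 1.01 (95% counting interval 0.916 to 1.11). Without the Fabp4-led mouse sub-cluster the mouse value was 659 CPM and the direction turned, at a ratio of 0.899 (95% counting interval 0.815 to 0.991). The rat cells were left whole there, although Map3k7cl and Heyl were also among the leading genes of the control rat cluster. That ratio may therefore compare different mixtures. In the mutant library the 63 rat pericyte-like cells, most of its 79 rat cells, had 616 CPM (95% interval 557 to 679) and the mouse ones 821 CPM, and rat pericyte-like cells of the mutant library differed from those of the control library by 0.05 on the log2 scale. The rat pericyte-like cells of the libraries fell into different clusters, although all rat cells were clustered together: 62 of the 63 mutant cells lay in 1 cluster, led by Ebf1, Pdzd2 and Pde5a, and all 86 control cells in another, led by Rgs5, Ndufa4l2 and Cox4i2. Pdgfa in rat pericyte-like cells was 61.9 CPM (95% interval 44.4 to 83.9) in the mutant and 48.3 CPM (95% interval 34.7 to 65.5) in the control library. Pdgfra was lower in rat than in mouse mesenchymal cells of the control library, at 74.1 CPM (95% interval 66.0 to 83.0) in rat and 185 CPM (95% interval 180.2 to 189) in mouse cells, a log2 difference of -1.21. In alveolar fibroblast-like cells it was 28.4 CPM in rat and 104 CPM in mouse cells, and in adventitial fibroblast-like cells 135 CPM in rat and 233 CPM in mouse cells. In smooth muscle-like cells it was 121 CPM in rat and 135 CPM in mouse cells, but the rat cells were 2 unlike clusters. The 79 rat cells led by Htra1, Fbxl22, Ednrb and Fgf18, of which Htra1, Ednrb and Fgf18 also led the mouse myofibroblast-like cells of the control library, had 223 CPM (95% interval 187 to 264), and the 71 led by Il17b, Actg2 and Sbspon had 21.3 CPM (95% interval 11.4 to 36.5). No rat cells of the control library were named myofibroblast-like, so the mesenchymal totals compare different mixtures. The 10 rat cells named so in the mutant library had 705 CPM (95% interval 549.9 to 891).

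Measured genes were counted once in each of epithelial, mesenchymal and pericyte-like cells, the last also part of the mesenchymal cells. Of the 10 pairs of gene and cell group, 1 differed by at least 2-fold between rat and mouse, Pdgfra in mesenchymal cells. Of all genes measured by symbol, 23.5%, 21.9% and 24.6% did so in those cell groups. The build, the annotation and the capture of a 3' end differ between the species, and these cannot be told apart from a difference in RNA. Rat features made up at most 1.79% of a PDGF gene's UMIs in mouse cells, beside 0.594% over all genes in the mutant and 0.733% in the control library; the 1.79% was for Pdgfrb in the control library.

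**Figure D5:**
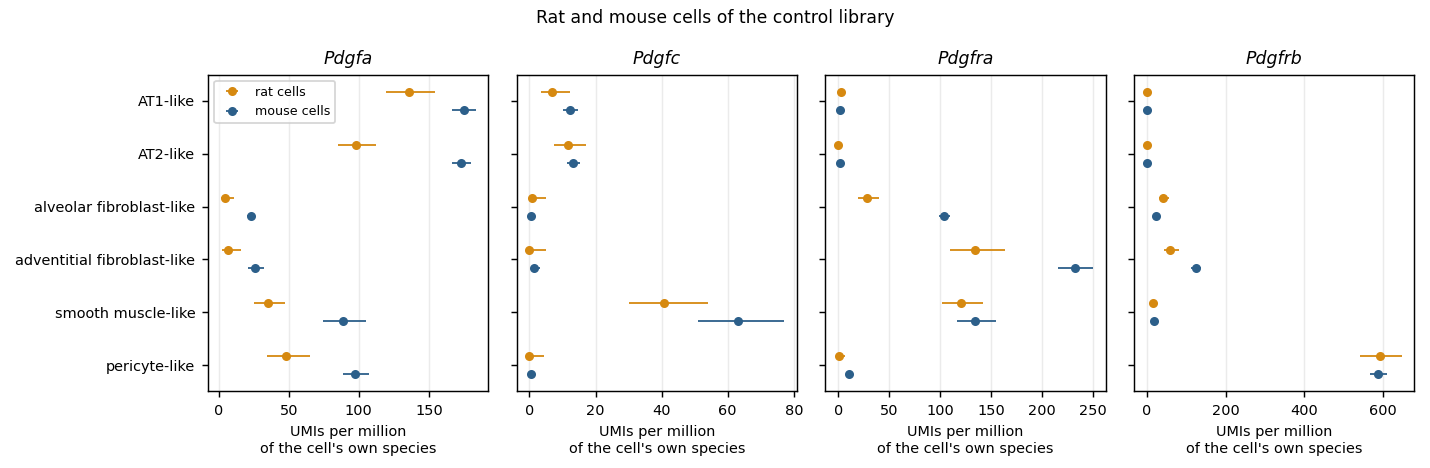
UMIs of a gene per 1000000 UMIs of the cell's own species (horizontal axis, CPM, linear) for 4 genes in rat and mouse cells of the control library, with rat above mouse and 95% Poisson intervals, in types with at least 50 cells of both species. Pdgfrb in pericyte-like cells lies at 592 CPM in rat and 587 CPM in mouse cells, or 659 CPM without the Fabp4-led mouse sub-cluster. Pdgfa lies lower in rat cells of every type drawn. Without that mouse sub-cluster, and with the rat cells left whole, the pericyte-like ratio was 0.793 (95% counting interval 0.553 to 1.11), an interval that holds 1.

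Genes around the PDGFs were taken from 2 lists. The first held 12 genes that cut, bind or carry the ligands, such as the convertase genes Furin and Pcsk5, the plasminogen activator Plat and the co-receptor Nrp1. At least 2-fold higher in the mutant library were 2 of 9 measured in epithelial, 2 of 7 in endothelial, 1 of 9 in mesenchymal and 1 of 9 in pericyte-like mouse cells, and 2 of the 9 in epithelial cells were lower. Of all measured genes, 12.3%, 9.89%, 10.8% and 10.9% were higher by as much, and 12.1% in epithelial cells were lower. Relative to genes of like intron length the counts of higher genes were 0, 0, 1 and 1, and those of lower genes 3 in epithelial and 1 in pericyte-like cells. Of all measured genes, 9.04%, 4.48%, 5.98% and 6.9% were higher on that measure, and 6.81% in epithelial and 4.42% in pericyte-like cells were lower. The thrombospondin Thbs1 was 63.4 CPM in mutant and 264 CPM in control epithelial cells (log2 difference -1.90, and -1.41 relative to like genes), and 444 CPM in mutant and 224 CPM in control mesenchymal cells. Plat, which can open latent PDGF-C, was 257 CPM in mutant and 75.6 CPM in control pericyte-like cells (1.64, and 1.85 relative to like genes). Pcsk5 was 349.7 CPM in mutant and 127 CPM in control endothelial cells, but its difference of 1.39 became -0.21 relative to like genes, and in mesenchymal cells it was 229 CPM in mutant and 49.7 CPM in control cells, with a difference of 0.46 relative to like genes. Medians over the measured genes of the list were -0.28 in epithelial, 0.04 in endothelial, 0.37 in mesenchymal and 0.16 in pericyte-like cells, beside -0.18, -0.12, -0.10 and -0.06 over all measured genes.

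The second list held 16 genes that act below the receptors, all measured in each group. At least 2-fold higher in the mutant library were 4 in epithelial, 2 in endothelial, 4 in mesenchymal and 4 in pericyte-like mouse cells, and none was lower by 2-fold; relative to genes of like intron length 2, 0, 3 and 3 were higher and 0 lower. The shares of all measured genes that were higher were 12.3%, 9.89%, 10.8% and 10.9% in these cell groups, and 9.04%, 4.48%, 5.98% and 6.9% against genes of like intron length. The transcription factor gene Stat3 was 349 CPM in mutant and 78.8 CPM in control epithelial cells (2.02, and 1.97 relative to like genes), 369.6 CPM in mutant and 85.5 CPM in control mesenchymal cells (1.99, and 1.90) and 308 CPM in mutant and 77.1 CPM in control pericyte-like cells (1.87, and 1.71). Cblb, a ubiquitin ligase gene, was 253 CPM in mutant and 44.7 CPM in control mesenchymal cells (2.26, and 1.52). Pik3r1, the regulatory subunit of PI3-kinase, was 305 CPM in mutant and 105 CPM in control pericyte-like cells (1.45, and 1.04), and the adaptor gene Gab1 368 CPM in mutant and 97.5 CPM in control ones (1.81, and 1.21). Medians of the list were 0.15, 0.22, 0.15 and 0.48 in epithelial, endothelial, mesenchymal and pericyte-like cells. In rat pericyte-like cells, 6 of 16 were at least 2-fold higher in the mutant than in the control library, where 15.9% of all measured genes were; Stat3 was 328 CPM in mutant and 91.9 CPM in control ones. Between rat and mouse cells of the control library, 3 of 15 in epithelial, 3 of 16 in mesenchymal and 3 of 15 in pericyte-like cells were lower in rat by 2-fold, and 1 in epithelial cells was higher, where 15.7%, 15.1% and 17% of all measured genes were lower. In epithelial cells 23.5% of all measured genes differed by 2-fold in either direction.

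Across the named mouse types with at least 50 cells, 12 in the mutant and 9 in the control library, the genes whose log2(CPM + 10) pattern was most like that of a PDGF gene were ranked by the smaller of the 2 Pearson correlations, 1 in each library. The points share a library and its depth, and the correlations are a description. Arterial-like cells were the only endothelial type among the 9 of the control library, so the control correlations of Pdgfb and Pdgfd rest mainly on that 1 type. Control Pdgfb was 523 CPM there and at most 11.4 CPM in the other types, and Pdgfd 49.0 CPM there and at most 1.59 CPM. For Pdgfb they were Myzap (0.99 in both), Ppp1r16b and Myct1 (both 0.99 in both), and for Pdgfd the Notch ligand gene Dll4 (0.97 in the mutant, 0.98 in the control library), the transcription factor gene Sox17, one of the arterial markers (0.96 and 0.99), and the receptor gene Notch4 (0.95 and 0.99). For Pdgfra they were Pth1r (0.97 in both), Cacna1g (0.98 in the mutant, 0.96 in the control library) and Tnc (0.95 and 0.99), and for Pdgfrb Ccn4 (0.95 in both), Pag1 (0.95 in both) and Gucy1a1 (0.97 and 0.95), the last one of the pericyte markers. Pdgfa followed Sorcs2 (0.94 and 0.88), Src (0.88 and 0.86) and Grhpr (0.87 and 0.86) less closely, and Pdgfc, which like Pdgfd did not reach 50 CPM in a type of both libraries, had no gene over 0.77 in the smaller correlation.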

How the data were processed

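Droplet single-cell libraries, 1 mutant and 1 control, were used as deposited. The authors deposited UMI counts per gene and barcode, mapped to mm10 and rn6 with Cell Ranger 7.0.1 for the mutant and 6.0.1 for the control library, per the file headers. Whether intronic reads were counted is not given in the sources used here. Seurat 4.3 is named in the submitters' processing notes, and none of its output was used here. Barcodes with at least 500 genes and at most 20% mitochondrial UMIs were kept, called mouse or rat at 90% of UMIs, and otherwise left out as mixed. Scrublet scores of 0.2 or more removed 357 mutant and 154 control mouse barcodes. The automatic threshold had called 2 in the control library, and mutant rat cells were not scored. The libraries shared 47 barcode sequences. Cells were clustered (Scanpy 1.11.5, Leiden resolution 1) without the 6 genes and typed by marker lists, mouse cells within each library and the rat cells of both libraries together. Clusters of low depth or with markers of a further class stayed out of the classes. Counts were summed per type (NumPy 2.4.6) and given as CPM of the cell's own species, with exact Poisson 95% intervals (SciPy 1.17.1). Differences are log2((CPM + 10)/(CPM + 10)) for genes with at least 10 CPM in either group. With 1 library per group there is no test. Intron lengths are from GENCODE vM21. The log2 differences and the counting intervals of ratios were tested on simulated counts. The PDGF genes and the lists were chosen with earlier results of these data known. All 6 genes were described in full. Pathway genes named are among the 4 of largest difference per list and cell group with at least 50 CPM, and the genes of like pattern are the 3 with the highest smaller correlation.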

Additional observations from a re-analysis of the deposited data

Results flagged for a closer look

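Mutant over control differences of 1 gene ran in opposite directions in pairs of mouse cell types, and the difference between the types was not tested. For Pdgfa it was 0.71 on the log2 scale in AT1-like and -1.11 in AT2-like cells, 1.82 apart. For Pdgfc it was 0.74 in AT2-like and -0.44 in AT1-like cells, 1.18 apart, but both were below 0 relative to genes of like intron length. For Pdgfra it was 1.18 in myofibroblast-like and -0.58 in pericyte-like cells, 1.76 apart, with 8 mutant and 50 control UMIs in the pericyte-like cells. For Pdgfrb it was 0.64 in myofibroblast-like and -0.66 in adventitial fibroblast-like cells, 1.31 apart. Between rat and mouse cells of the control library, the Pdgfrb difference was 0.69 in alveolar fibroblast-like and -0.95 in adventitial fibroblast-like cells, 1.64 apart and likewise untested. The adventitial groups were unlike: the mouse one held the Ptn-led sub-cluster at 253 CPM beside one at 56.9 CPM, while 24 rat cells led by Ptn, Ogn and Cxcl13, at 132 CPM, were left untyped and the rat group was 59.9 CPM without them.

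Barcodes with RNA of both species, which entered no comparison, also carried rat Pdgfrb, at 491 CPM of their rat UMIs in the mutant and 253 CPM in the control library. They held 31.7% of all rat Pdgfrb UMIs in the mutant and 65.5% in the control library.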

How the results depend on the processing

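No paired analysis was possible because each group has 1 library. In mouse cells, 2 of 11 pairs of measured gene and cell group differed by at least 2-fold between the mutant and control libraries. The count was 4 with a pseudocount of 1 CPM and 1 in mesenchymal cells without myofibroblast-like cells, an alternative chosen after seeing the data, where the Pdgfra difference was -0.18. That alternative kept the 307 untyped control cells whose best-scoring type list was that of myofibroblasts. Between rat and mouse cells the count was 1 of 10, and it was 2 with doublets kept, 2 at Leiden resolution 0.5, 2 at Leiden resolution 2 and 3 with a pseudocount of 1 CPM. Keeping shallow clusters or mixed sub-clusters and leaving out the Fabp4-led pericyte-like cells were also chosen after seeing the data. Species limits of 95% left too few rat pericyte-like cells for a value. Of 293 log2 differences under alternatives, 255 stayed within counting error, 37 moved past it and 1 reversed. A reversal was counted only for a difference of at least 2-fold, and the sign changed in 9, the reversed one among them. Some alternatives could not move most values. Taking away the filter on low values left the compared differences as they were, and leaving out cells of a type changed only its own group. Thinning moved 164 of 204 shares of cells with a UMI past counting error. Rat values rest on 79 mutant and 725 control cells, and no alternative stands in for a second library.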
